A study of Rattus norvegicus with 6 samples.

Results

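Beta cells of the islet make, pack and release insulin with the help of genes that encode no hormone, and 9 of these were chosen here from pancreatic duct gland RNA: the convertases Pcsk1 and Pcsk2, the receptor Insrr, the neural-type genes Gad1 and Dcx, the transporters Slc2a2 and Slc30a8, the phosphatase G6pc2 and the connexin Gjd2. Members were taken by gene symbol, and 8 of the 9 were found among 15679 listed genes; G6pc2 was not analysed here. They were chosen because Pcsk1, Insrr, Gad1 and Dcx had no read in 2 libraries and had more reads in libraries rich in insulin transcripts, so this pattern is given as a description, with no test.

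The study set HIP rats against wild-type (WT) rats. HIP rats are Sprague-Dawley animals with a human islet amyloid polypeptide transgene under an insulin promoter, active in beta cells, and the study describes them as pre-diabetic; WT rats are Sprague-Dawley animals without it. Glands, which are small outpouchings in the wall of large pancreatic ducts, were recognised by their shape and cut out with a laser, and ages are not given in the sources used here. There were 3 HIP libraries (HIP30, HIP2 and HIP3) and 3 WT libraries (WT26, WT1 and WT4), named by group and title number; the labels do not tie libraries to separate rats, so p-values reflect only how far these libraries differ, part of which may be technical, and would be too small if glands of 1 rat were split.

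In a beta cell, proinsulin is cut by 2 convertases inside secretory granules, zinc imported into the granule lets insulin crystallise, glucose enters through a transporter and is metabolised, and gap junctions couple the electrical response of neighbouring cells. Rodent beta cells also share part of the neuronal gene programme, in part because they lack the repressor REST, which silences neuronal genes in most other tissues. Duct gland cells are epithelial and are not known for making insulin.

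Libraries held 15141136 to 17574682 reads, and levels are given as CPM, reads per 1000000 reads on the listed genes. Ins1 and Ins2 are close relatives with separate counts. How reads shared by them were assigned is not stated in the sources used here, so the pair is summed. A count of 0 allows up to 0.171 to 0.198 CPM, depending on the library; this limit of 3 reads and all intervals cover counting error only. The 4 duct markers measured, Krt19, Epcam and Cftr among them, were read in all 6 libraries, with a summed level of 3781 to 4626 CPM in HIP and 3974 to 9937 CPM in WT. The markers Krt7 and Sox9 were not analysed here. Genes without a read numbered 1837 to 2440 in the HIP libraries, against 2822 in WT26, 2488 in WT1 and 672 in WT4, and the part of this in the members' levels was not tested. Libraries of the same group stood far apart in insulin: Ins1 and Ins2 together had 0, 2335 and 80813 reads in HIP30, HIP2 and HIP3, against 0, 1449 and 179786 reads in WT26, WT1 and WT4. Insulin thus took 0%, 0.0145% and 0.484% of reads in the HIP libraries, against 0%, 0.00831% and 1.14% in the WT libraries. HIP30 and WT26, without an insulin read, also carry higher title numbers than the other libraries. The labels do not say what these numbers mean, so absence of insulin and numbering cannot be told apart.

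The sequences before a transcript start of 4 members are shown because these genes divide by their reads in the libraries without insulin: Slc2a2 and Dcx had none there, while Pcsk2 was read in HIP30 and Gjd2 in WT26. For Gjd2 this rests on 4 reads, which overlap its 0 reads in HIP30 within counting error. Gad1, also without a read in HIP30 and WT26, is counted below but its sequence is not shown. Whether the letters go with these reads was not tested. Each is the 250 bases before the 1 transcript start per gene in a RefSeq promoter table (build GRCr8), 5′ to 3′. That start is the 5′ bound of the RefSeq gene for Pcsk2 and Gjd2, but lies 2486 bases inside the gene bounds for Slc2a2 and 66130 bases inside them for Dcx, so that the gene bounds reach farther upstream than these windows. Capitals mark TAAT or its reverse complement ATTA, the core bound by homeodomain factors such as Pdx1 and Nkx6-1, and GGACAG or its reverse complement CTGTCC, the right part of the REST binding element.
Slc2a2, chr2:113540120-113540369, plus strand: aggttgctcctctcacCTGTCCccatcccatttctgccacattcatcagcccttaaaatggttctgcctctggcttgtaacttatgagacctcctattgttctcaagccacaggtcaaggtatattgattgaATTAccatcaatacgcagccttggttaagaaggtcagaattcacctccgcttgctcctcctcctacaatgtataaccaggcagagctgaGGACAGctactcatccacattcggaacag
Dcx, chrX:112304162-112304411, minus strand: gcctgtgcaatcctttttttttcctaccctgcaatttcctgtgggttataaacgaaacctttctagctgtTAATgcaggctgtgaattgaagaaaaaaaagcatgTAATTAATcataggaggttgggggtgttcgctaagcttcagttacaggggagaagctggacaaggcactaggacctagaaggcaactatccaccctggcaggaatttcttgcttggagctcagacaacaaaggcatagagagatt
Pcsk2, chr3:151333688-151333937, plus strand: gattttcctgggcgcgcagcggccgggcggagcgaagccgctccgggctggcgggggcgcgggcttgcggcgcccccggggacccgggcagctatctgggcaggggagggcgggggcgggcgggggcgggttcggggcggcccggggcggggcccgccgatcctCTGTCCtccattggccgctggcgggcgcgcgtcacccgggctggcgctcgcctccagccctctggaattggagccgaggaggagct
Gjd2, chr3:121229368-121229617, minus strand: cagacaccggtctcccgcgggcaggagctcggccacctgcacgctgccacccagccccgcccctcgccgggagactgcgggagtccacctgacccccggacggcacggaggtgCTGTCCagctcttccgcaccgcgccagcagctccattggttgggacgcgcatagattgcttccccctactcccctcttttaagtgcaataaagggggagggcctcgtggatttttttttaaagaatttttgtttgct
Of the 8 members measured, 5 matched a promoter entry (these 4 and Gad1, whose start lies 192 bases inside its gene bounds). GGACAG stood in 3 of the 5 windows (Slc2a2 with 2 copies, Pcsk2 and Gjd2), against 18.21% of 33469 windows of the same length. TAAT stood in 2 of the 5 (Slc2a2 and Dcx), against 56.97%, and not in Gad1, which was likewise unread in HIP30 and WT26. In Dcx the middle one of the 3 downstream copies overlaps its neighbours on both sides. The left part of the REST element, TTCAGCACC, was in none of the 5 windows, against 0.3% of all windows. The E-box CANNTG, a motif of basic helix-loop-helix factors, was in 3 of the 5 (Gad1, Slc2a2 and Gjd2), against 65.54%, and in Slc2a2 it shares letters with a CTGTCC. The other letters searched on both strands were CATCTG, an E-box of the insulin genes (0 of 5, against 13.96%), TGCTGA of Maf factors (0 of 5, against 15.14%), TGACG of cAMP response elements (1 of 5, against 18.22%, in Pcsk2) and TATAAA (2 of 5, against 12.93%, in Gad1 and Dcx).

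**Figure D1:**
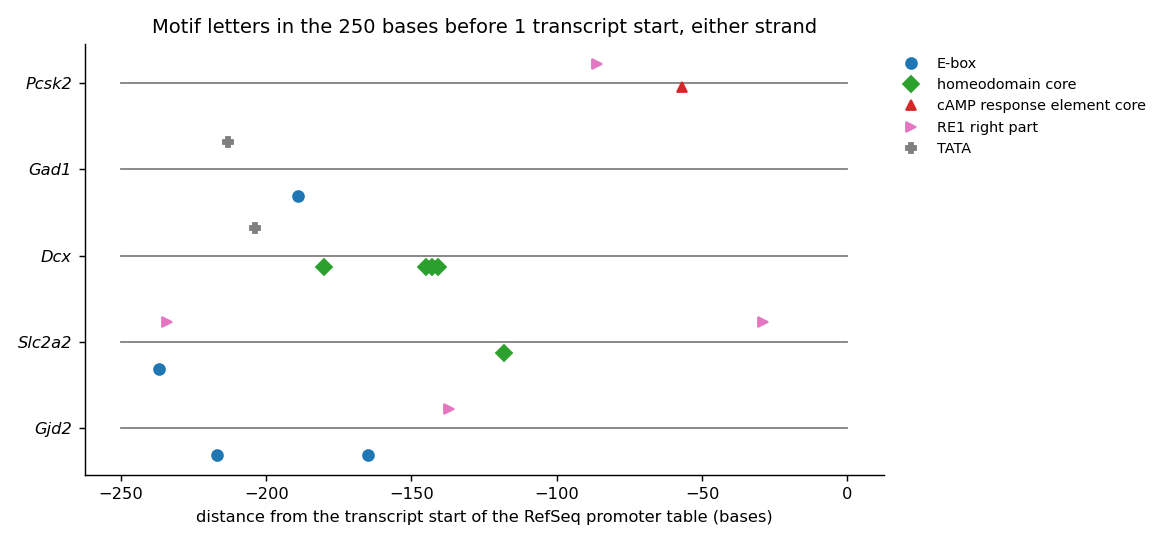
Motif letters in the 250 bases before 1 transcript start of each of 5 members, with distance from that start in bases on the x axis and 1 line per gene; symbols mark the start of each match on either strand. Dcx holds 4 TAAT matches, and Pcsk2, Gad1 and Gjd2 hold none.

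Pcsk1 encodes a prohormone convertase that makes an early cut in proinsulin. It had 0, 26 and 67 reads (0, 1.61 and 4.01 CPM) in HIP30, HIP2 and HIP3, against 0, 6 and 197 reads (0, 0.344 and 12.5 CPM) in WT26, WT1 and WT4. Each group thus held 1 library without a read, 1 low and 1 high library, and the groups overlapped. Pcsk2, the second proinsulin convertase, also processes the prohormones of alpha and delta cells. It had 54, 122 and 521 reads (3.57, 7.58 and 31.2 CPM) in HIP30, HIP2 and HIP3, against 0, 16 and 974 reads (0, 0.917 and 61.6 CPM) in WT26, WT1 and WT4. Pcsk2 was therefore the member read in HIP30, where 7 of the 8 members and both insulin genes had no read, and its HIP30 level stood above its WT1 level beyond counting error.

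HIP30 did hold other islet and gut hormones. Sst, which encodes somatostatin, had 4047, 2814 and 166 reads in HIP30, HIP2 and HIP3, against 0, 450 and 576 reads in WT26, WT1 and WT4. Ghrl, which encodes ghrelin, had 882, 462 and 249 reads in the HIP libraries, against 178, 170 and 172 reads in the WT libraries. The part of cells making these hormones in the Pcsk2 level was not tested.

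Insrr encodes a receptor of the insulin receptor family that does not bind insulin and responds to alkaline pH. It had 0, 7 and 149 reads (0, 0.435 and 8.92 CPM) in HIP30, HIP2 and HIP3, against 0, 7 and 319 reads (0, 0.401 and 20.2 CPM) in WT26, WT1 and WT4. HIP2 and WT1 could not be told apart at this depth, and HIP3 and WT4 stood far above them.

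Gad1 encodes glutamate decarboxylase, which makes the transmitter GABA in neurons and beta cells. It had 0, 16 and 52 reads (0, 0.994 and 3.11 CPM) in HIP30, HIP2 and HIP3, against 0, 2 and 174 reads (0, 0.115 and 10.998 CPM) in WT26, WT1 and WT4. Its 2 reads in WT1 lie below the limit that 3 reads set. Dcx encodes doublecortin, a microtubule-binding protein of young neurons. It had 0, 6 and 159 reads (0, 0.373 and 9.52 CPM) in HIP30, HIP2 and HIP3, against 0, 4 and 622 reads (0, 0.229 and 39.3 CPM) in WT26, WT1 and WT4. Nearly all Dcx reads were thus in HIP3 and WT4.

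Slc2a2 encodes GLUT2, the glucose transporter of rodent beta cells, also used by liver, kidney and gut. It had 0, 36 and 546 reads (0, 2.24 and 32.7 CPM) in HIP30, HIP2 and HIP3, against 0, 15 and 1364 reads (0, 0.860 and 86.2 CPM) in WT26, WT1 and WT4. All 4 libraries with a read differed from each other beyond their counting intervals. Slc30a8 encodes ZnT8, which carries zinc into insulin granules. It had 0, 24 and 32 reads (0, 1.49 and 1.92 CPM) in HIP30, HIP2 and HIP3, against 0, 8 and 164 reads (0, 0.459 and 10.4 CPM) in WT26, WT1 and WT4. In contrast to Slc2a2, HIP2 and HIP3 overlapped within counting error, and WT4 stood apart.

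Gjd2 encodes Cx36, the gap junction protein that couples beta cells and some neurons. It had 0, 9 and 34 reads (0, 0.559 and 2.03 CPM) in HIP30, HIP2 and HIP3, against 4, 12 and 55 reads (0.228, 0.688 and 3.48 CPM) in WT26, WT1 and WT4. It was the member with the fewest reads, 114 over all libraries, and the member read in WT26. Of its neighbours in the order of levels, only WT1 and HIP3 were separated by their counting intervals.

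**Figure D2:**
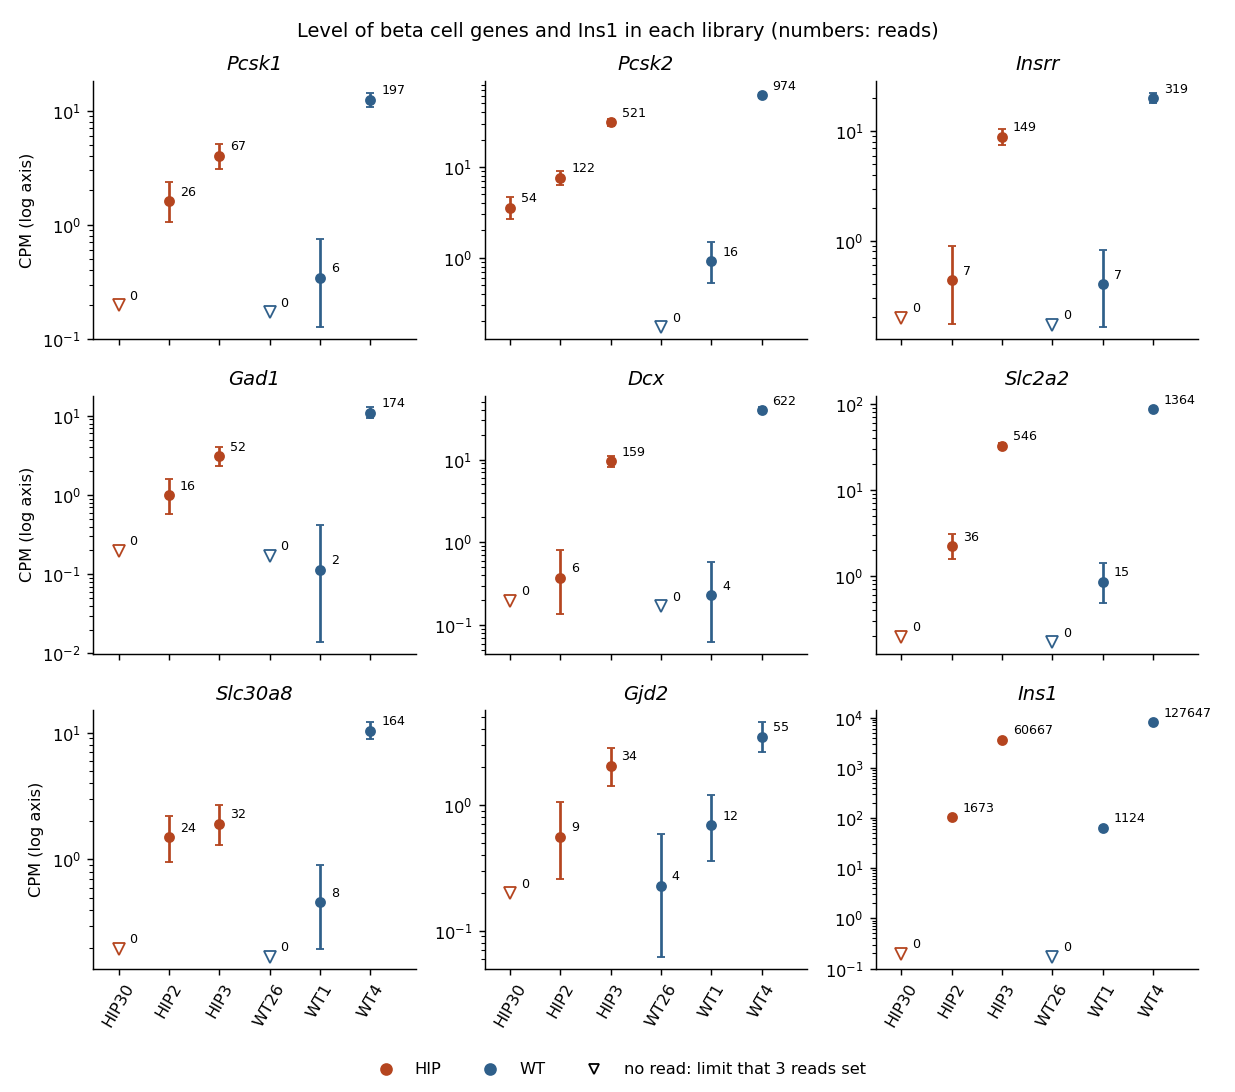
CPM on log axes (a separate scale for each panel) of the 8 members and Ins1 in each library, HIP libraries in orange and WT libraries in blue; bars are 95% Poisson intervals for counting error, numbers are reads and open triangles stand at the limit set by 3 reads where no read was found. HIP3 and WT4 are the highest libraries in each panel, and HIP30 has a read in the Pcsk2 panel alone.

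The order of libraries was the same for 6 of the 8 members: WT4, HIP3, HIP2, WT1 and then HIP30 and WT26, both without a read. Parts of this order lay within counting error: HIP2 and WT1 for Insrr and Dcx, and HIP3 and HIP2 for Slc30a8. The same held for WT1 and HIP30 in all of these genes but Slc2a2. Pcsk1, Insrr, Gad1 and Dcx were also chosen for this pattern, so their shared order was in part fixed by the choice. Pcsk2 differed by its reads in HIP30 and Gjd2 by its reads in WT26 and by WT1 standing above HIP2 within counting error. Summed over the 8 members the level was 3.57, 15.3 and 93.4 CPM in HIP30, HIP2 and HIP3, against 0.228, 4.01 and 245 CPM in WT26, WT1 and WT4. Between the 2 highest libraries, the CPM ratio of HIP3 over WT4 ran from 0.185 for Slc30a8 (95% counting interval 0.122 to 0.271) to 0.585 for Gjd2 (0.370 to 0.914). In such bulk samples fewer beta cells and less RNA per beta cell cannot be told apart.

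Set against insulin, the members did not keep 1 ratio from library to library. Per 1000 reads of Ins1 and Ins2, the members together had 105 reads in HIP2 and 19.3 in HIP3, against 48.3 in WT1 and 21.5 in WT4. The libraries poorer in insulin thus held more member reads per insulin read in each group, taken as a sum. Pcsk2 alone gave 52.2 of the 105 in HIP2 and 11.04 of the 48.3 in WT1. Dcx went the other way in WT, with 2.76 in WT1 and 3.46 in WT4. Because the members were chosen for levels that go with insulin, these ratios are a description with no test, their 95% exact binomial intervals cover counting error, and each is of single libraries, not of conditions.

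Dcx and Insrr rest on 6 and 7 reads in HIP2 and on 4 and 7 reads in WT1, so their ratios there are imprecise. Dcx had 2.57 reads per 1000 insulin reads in HIP2 and 1.97 in HIP3, against 2.76 in WT1 and 3.46 in WT4. Insrr had 2.998 in HIP2 and 1.84 in HIP3, against 4.83 in WT1 and 1.77 in WT4. HIP2 over HIP3, the ratio was 1.31 for Dcx (interval 0.472 to 2.91) and 1.63 for Insrr (0.643 to 3.43).

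Slc30a8, the zinc transporter, had 10.3 reads per 1000 insulin reads in HIP2 and 0.396 in HIP3, against 5.52 in WT1 and 0.912 in WT4. This was a ratio of 25.96 between HIP2 and HIP3 (interval 14.6 to 45.5). Pcsk1 had 11.1 in HIP2 and 0.829 in HIP3, against 4.14 in WT1 and 1.096 in WT4. Pcsk2 had 52.2 in HIP2 and 6.45 in HIP3, against 11.04 in WT1 and 5.42 in WT4. All 8 members, and Iapp with 36.8 in HIP2 and 12.2 in HIP3, had the higher ratio in HIP2. Gjd2 had 3.85 in HIP2 and 0.421 in HIP3, against 8.28 in WT1 and 0.306 in WT4, and Gad1 had 6.85 in HIP2 and 0.643 in HIP3, against 1.38 in WT1 and 0.968 in WT4. Slc2a2 moved less, with 15.4 in HIP2 and 6.76 in HIP3, against 10.4 in WT1 and 7.59 in WT4.

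The 2 libraries rich in insulin allow the most precise ratios. HIP3 over WT4, the ratio to insulin was 0.434 for Slc30a8 (interval 0.287 to 0.637), 0.569 for Dcx (0.475 to 0.678), 0.665 for Gad1 (0.478 to 0.911) and 0.891 for Slc2a2 (0.805 to 0.984), which turned to 1.04 with Ins2 alone in place of both insulin genes. Pcsk2 stood on the other side, at 1.19 (1.07 to 1.32). Pcsk1, Insrr and Gjd2 stood at 0.757 (0.565 to 1.003), 1.04 (0.850 to 1.27) and 1.38 (0.869 to 2.15). The other ratios also moved with the insulin gene used. Gad1 stood at 0.629 with Ins1 alone and 0.773 with Ins2 alone, and Pcsk1 at 0.716 and 0.880. Whether an interval near 1 holds 1 can thus depend on this choice. These are 1 library of each group, so the values give no estimate of spread between rats.

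**Figure D3:**
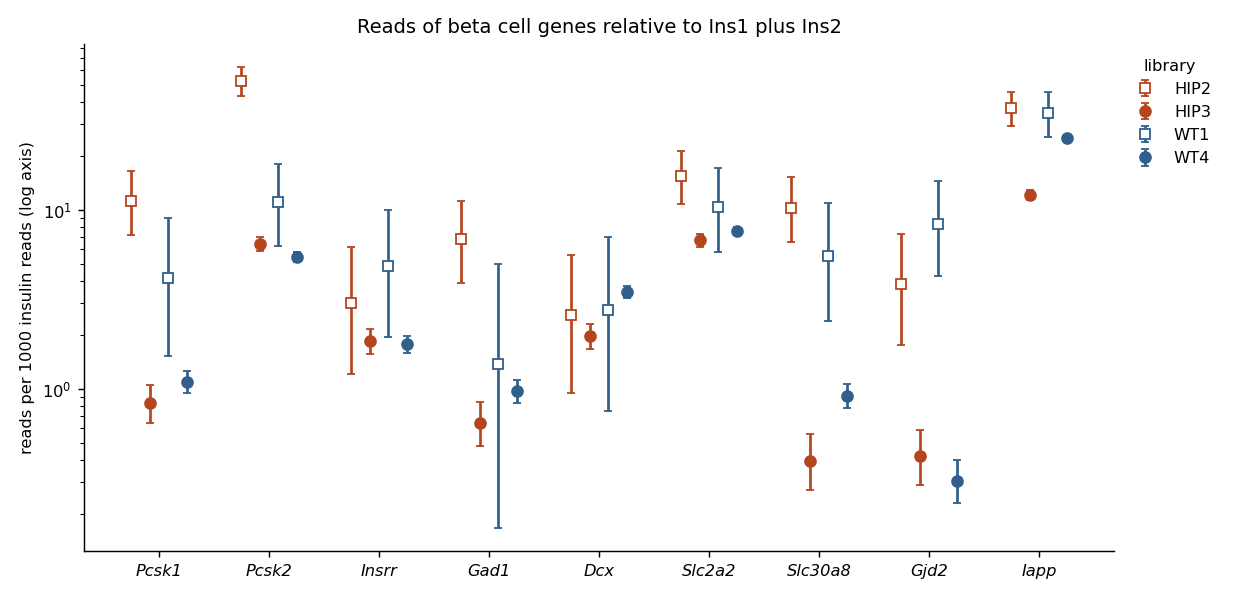
Reads per 1000 reads of Ins1 plus Ins2 (log axis) for the 8 members and Iapp in the 4 libraries with insulin reads. Iapp is listed as the rat gene for islet amyloid polypeptide, not as the human transgene. Orange is HIP, blue is WT, open squares are HIP2 and WT1, and filled circles are HIP3 and WT4. Bars are 95% intervals for counting error. Squares lie above circles for most members, and for Dcx all 4 libraries lie between 1.97 and 3.46.

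Other cell types were followed by marker lists without the members. Of 7 beta cell markers, HIP30 and WT26 had reads in 2 each, Pdx1 and Abcc8, and none in Ins1, Ins2, Iapp, Nkx6-1 and Ucn3, and the other 4 libraries had reads in all 7. The summed beta cell level was 45.9, 191 and 4938 CPM in HIP30, HIP2 and HIP3, against 37.2, 119 and 11717 CPM in WT26, WT1 and WT4. Pdx1 alone made up 37.4 CPM of this in HIP30 and 37.1 CPM in WT26, so that Abcc8 added next to nothing in WT26. Pdx1 did not go with insulin: it ran from 34.9 to 37.4 CPM in HIP and from 31.4 to 37.9 CPM in WT. Ins1 and Ins2 made up 4836 CPM of the beta cell sum in HIP3 and 11363 CPM in WT4. Since the members were chosen for going with insulin, this sum is no separate evidence on their pattern. Acinar markers were also highest in HIP3 and WT4: their sum was 36.8, 27.9 and 118 CPM in HIP30, HIP2 and HIP3, against 34.7, 22.8 and 78.4 CPM in WT26, WT1 and WT4. Of the 7 acinar markers, Prss1, Cpa1, Cel, Ctrb1 and Pnlip were at 0 in HIP30 and in WT26, and Pnlip in WT1. The acinar part in the member levels was not tested.

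Gut endocrine markers, 7 genes, summed to 43.9, 35.4 and 36.4 CPM in HIP30, HIP2 and HIP3, against 7.06, 12.2 and 107 CPM in WT26, WT1 and WT4, with Chga, Chgb and Tph1 at 0 in WT26. Markers of nerve and Schwann cells, 6 genes, ran from 54.6 to 68.0 CPM in HIP and from 51.8 to 110.0 CPM in WT, highest in WT26. That high sum rests largely on Chat, a gene also found in tuft cells. Chat alone had 26.3, 28.3 and 37.8 CPM in HIP30, HIP2 and HIP3, against 90.8, 30.3 and 39.9 CPM in WT26, WT1 and WT4. The nerve part in the Dcx and Gad1 levels was not tested. Tuft cell markers, 4 genes, ran from 1488 to 1995 CPM in HIP and from 1342 to 2165 CPM in WT. Delta cell markers, Sst and Hhex, summed to 412, 269 and 73.8 CPM in HIP30, HIP2 and HIP3, against 66.2, 82.9 and 103 CPM in WT26, WT1 and WT4, an order unlike that of the members. Alpha cell markers, 4 genes, summed to 275, 157 and 53.6 CPM in HIP30, HIP2 and HIP3, against 87.1, 49.7 and 78.8 CPM in WT26, WT1 and WT4, while the glucagon gene Gcg among them was at 0 in HIP30, HIP2, WT26 and WT1.

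**Figure D4:**
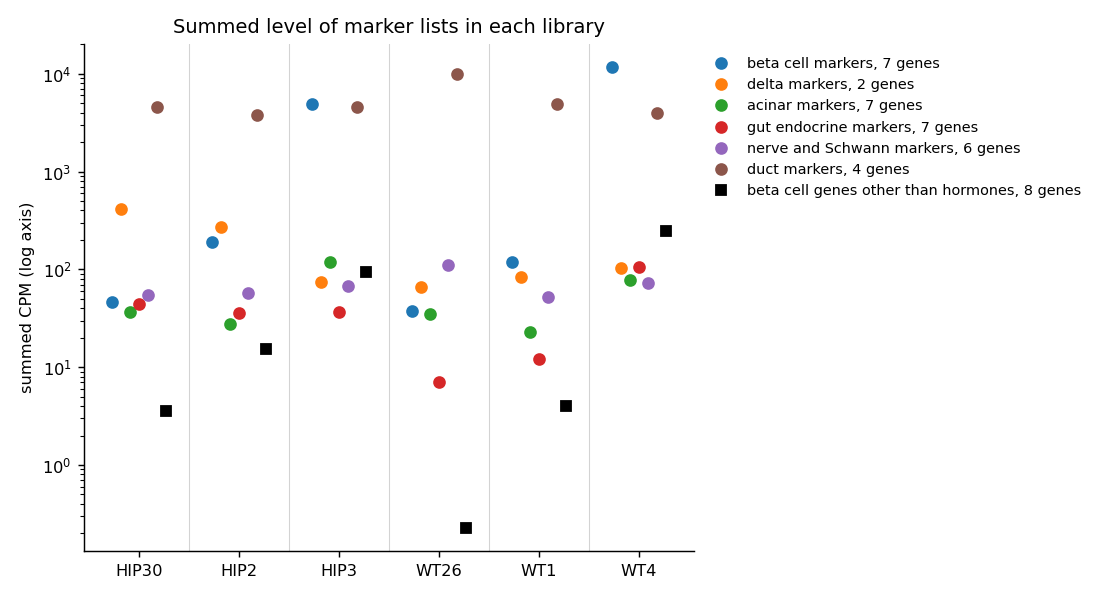
Summed CPM (log axis) of marker lists and of the 8 members (black squares) in each library, HIP libraries on the left and WT libraries on the right. The members and the beta cell markers are both highest in HIP3 and WT4, while duct markers stay between 3781 and 9937 CPM. In HIP3 and WT4 the beta cell sum is mostly Ins1 and Ins2, and the members were chosen for going with insulin.

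HIP against WT, no tested member differed beyond the spread between libraries. Over all genes, 0 of 12102 tested passed limma's test at an adjusted p of 0.05 (0%), also by limma-voom, and 792 (6.54%) had an unadjusted p under 0.05, or 914 by limma-voom. Of the members, 6 had enough reads to be tested (Pcsk1, Pcsk2, Gad1, Slc2a2, Slc30a8 and Gjd2), and 0 passed. Differences below are means on a log2 scale after adding 0.121 CPM, worth 2 reads, which understates changes of low genes. The groups did not overlap for 0 of the 6 members, against 10% of all genes tested. Pcsk1, Insrr, Gad1 and Dcx were chosen in part for having no read in HIP30 and WT26, a library of each group. Overlap was thereby fixed for these genes, and wide spread within groups follows in part from the choice of members.

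Pcsk2 averaged 14.1 ± 14.9 CPM in HIP and 20.8 ± 35.3 CPM in WT (SD, n = 3 each), while its mean log2 difference was 2.23 ± 2.00 (SE, limma, adjusted p = 0.818). The means in CPM and on the log2 scale thus differ in sign, since the unread WT26 weighs more on the log scale and WT4 more in CPM. Its difference ran from 0.21 without WT26 to 4.68 without WT4, where the adjusted p was 0.288. Gjd2 averaged 0.865 ± 1.05 CPM in HIP and 1.46 ± 1.76 CPM in WT, a log2 difference of -0.86 ± 1.26 (SE, limma, adjusted p = 0.905). Gjd2 ran from -1.84 without HIP3 to 0.25 without HIP30.

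The other 4 tested members had smaller differences, each below its standard error. Slc2a2 averaged 11.6 ± 18.3 CPM in HIP and 29.0 ± 49.5 CPM in WT, a log2 difference of -0.05 ± 2.61 (SE, limma, adjusted p = 0.997). Pcsk1, Gad1 and Slc30a8 differed by 0.10, 0.16 and -0.30, with standard errors of 1.87, 1.85 and 1.73 (limma, adjusted p = 0.991, 0.987 and 0.981). For these 4 genes the sign turned with single libraries: it was negative without WT26 (-2.14 for Slc2a2, -1.35 for Pcsk1, -1.09 for Gad1 and -1.75 for Slc30a8) and positive without WT4 (2.57, 1.97, 2.14 and 1.43 in the same order). Insrr and Dcx had too few reads in HIP2 and WT1 for the fit. Insrr differed by -0.36 and Dcx by -0.51, with exact 2-sided permutation p = 0.8 and p = 1 over the 6 libraries, where the smallest p possible is 0.1.

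**Figure D5:**
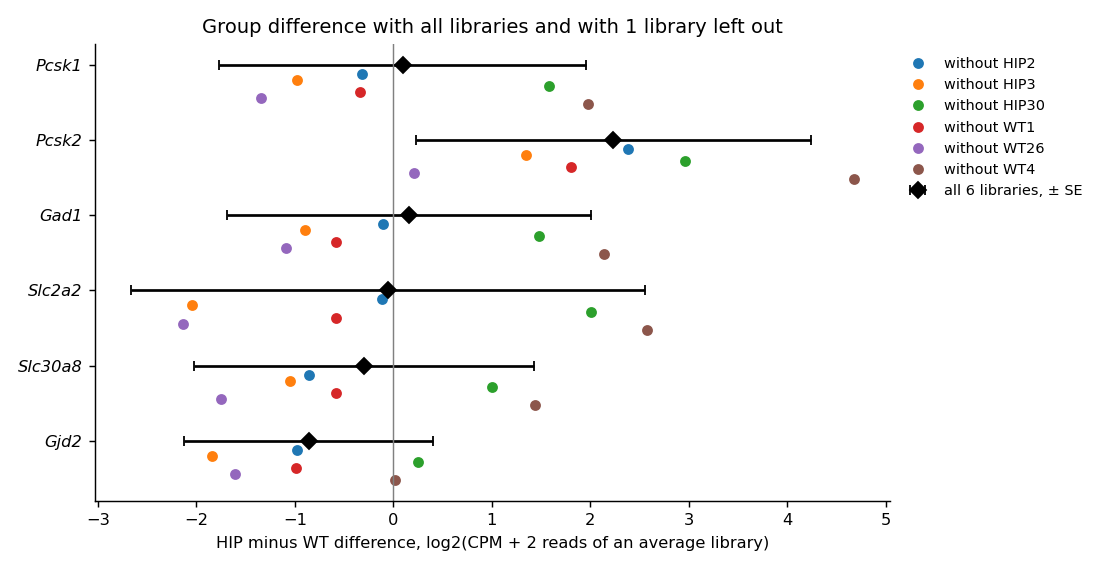
HIP minus WT difference on the log2 scale for the 6 tested members; diamonds with bars are all 6 libraries ± SE, and coloured points leave out 1 library each. For 5 of the members the points lie on both sides of 0, and for Pcsk2 they run from 0.21 to 4.68.

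Genes with the most similar profile were ranked by the root mean square difference, over the 6 libraries, between a gene's centred log2 level and the mean profile of the 6 tested members. Among 12089 other tested genes, hormones left out, the 10 nearest were Tmem130, Amy2, Ptprn, Gc, Rnase1, Crispld1, Ctrb1, Scg3, Snap25 and Cckar, at 0.52 to 0.95, where the median gene stood at 2.51. The members themselves ran from 0.23 for Pcsk1 to 1.32 for Pcsk2, with Slc2a2 at 1.204 and Gjd2 at 1.22, so that 3 of the 6 stood farther from their own mean profile than all 10 genes. Ins1 at 4.03 and Ins2 at 3.36 stood farther than the median gene. Levels were centred but not scaled, so a wide range alone makes this distance large. The log2 range was 15.96 for Ins1 and 14.67 for Ins2, against 9.42 for Slc2a2, the widest of the tested members. In CPM both insulin genes followed the order WT4, HIP3, HIP2 and WT1, with no read in HIP30 and WT26. Ptprn and Scg3 are proteins of secretory granules and Snap25 is part of the membrane fusion machinery. Amy2, Rnase1 and Ctrb1 encode secreted enzymes of acinar cells, and Cckar a receptor for cholecystokinin on them. Tmem130, the nearest gene, had 0, 23 and 137 reads in HIP30, HIP2 and HIP3, against 0, 4 and 119 reads in WT26, WT1 and WT4. Ctrb1 had 0, 17 and 327 reads in the HIP libraries, against 0, 3 and 298 reads in the WT libraries. With 6 libraries such likeness is a description.

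Related genes of the beta cell were taken as lists, beside a median difference of 0.01 over all genes tested, with 5 lists that follow the members' roles. The convertase list had 13 tested genes, Pcsk1 and Pcsk2 among them, 5 with a positive and 8 with a negative HIP minus WT difference and a median of -0.11 (-0.25 without HIP3 and -0.19 without WT1), and 0 passed. Pcsk6, a convertase of growth factor precursors, had 21.9, 41.3 and 79.5 CPM in HIP30, HIP2 and HIP3, against 101, 88.7 and 78.5 CPM in WT26, WT1 and WT4, a difference of -1.16 ± 0.45 (SE, limma, adjusted p = 0.691). Pcsk6 was highest in WT26, where Pcsk1 and Pcsk2 had no read.

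Of 25 tested genes of secretory granules and exocytosis, Slc30a8 among them, 19 had a positive difference and 6 a negative one, with a median of 0.52, and 0 passed. The median turned to -0.046 without WT26, was 0.19 without HIP3 and 0.34 without WT1, and reached 1.36 without WT4. The groups did not overlap for 3 of these genes, against 10% of all genes tested. Scg2, a granin, had 21, 108 and 1115 reads in HIP30, HIP2 and HIP3, against 0, 38 and 1746 reads in WT26, WT1 and WT4, the order of Pcsk2 but for HIP30 below WT1. Cadps, which primes granules for release, had 261, 245 and 58.3 CPM in the HIP libraries, against 13.8, 37.0 and 100.2 CPM in the WT libraries, a difference of 1.99 ± 0.75 (SE, limma, adjusted p = 0.691). Cadps was thus highest in HIP30 and HIP2, where most members were low or unread. Chgb, another granin, had 431, 468 and 447 reads in the HIP libraries, against 0, 158 and 1156 reads in the WT libraries, and Rab27a, a granule docking protein, differed by -0.85 ± 0.27 (SE, limma, adjusted p = 0.691).

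Of 15 tested genes of glucose sensing and excitability, Slc2a2 and Gjd2 among them, 8 had a positive and 7 a negative difference, with a median of 0.17, and 0 passed. The median turned to -0.12 without WT1 and to -0.10 without HIP3, was 0.09 without WT26 and 0.25 without HIP30, and reached 0.66 without WT4. Glp1r, the receptor for the incretin GLP-1, had 184, 140 and 17 reads in HIP30, HIP2 and HIP3, against 0, 2 and 94 reads in WT26, WT1 and WT4. Kcnk16, a potassium channel of islet cells, had 56, 30 and 46 reads in the HIP libraries, against 0, 1 and 55 reads in the WT libraries, and the calcium channel gene Cacna1a differed by 1.28 ± 0.56 (SE, limma, adjusted p = 0.691). Both Glp1r and Kcnk16 were thus read in HIP30, unlike Slc2a2 and Gjd2.

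Of 11 tested islet transcription factors 8 had a positive and 3 a negative difference, with a median of 0.28, and 0 passed. The median was 0.0048 without WT26 (6 positive and 5 negative), 0.10 without HIP2 and 0.14 without HIP30 or without HIP3. It was 0.0026 with no filter on low reads. Rfx6, a factor of islet and gut endocrine cells, had 1451, 1168 and 268 reads in HIP30, HIP2 and HIP3, against 0, 105 and 334 reads in WT26, WT1 and WT4, a difference of 4.21 ± 1.70 (SE, limma, adjusted p = 0.691). Neurod1, which acts on the insulin promoter, had 14, 15 and 53 reads in the HIP libraries, against 0, 19 and 110 reads in the WT libraries. Neurod1 was highest in HIP3 and WT4 as the members were, and Rfx6 was highest in HIP30 and HIP2.

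Of 14 tested neural-type genes, Gad1 among them, 12 had a positive and 2 a negative difference, with a median of 0.55, and 0 passed. The median was 0.13 without WT26 (8 positive and 6 negative), 0.28 without HIP3 and 0.90 without WT4, and 0.16 with no filter on low reads. The groups did not overlap for 3 of these genes, against 10% of all genes tested. Snap25 had 19, 40 and 135 reads in HIP30, HIP2 and HIP3, against 0, 22 and 283 reads in WT26, WT1 and WT4. Dclk2, a relative of Dcx, had 24.1, 15.7 and 16.8 CPM in the HIP libraries, against 8.76, 6.25 and 19.3 CPM in the WT libraries. Unlike Dcx and Gad1, Dclk2 was read in every library.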

How the data were processed

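The authors deposited, for each of 6 libraries, log2 values for 15679 gene symbols. The submitters' processing notes name STAR, HTSeq, edgeR, limma and the rn5 build, without versions or order, and RNA, per the labels' protocols, came from laser-captured glands and a very low input library kit. Whether counting used strand is not stated in the sources used here, so genes overlapping on opposite strands cannot be told apart. From the values, the deposited log2 scale is CPM after a prior of 0.25 reads was added, and whole reads were recovered for 100% of entries in every library (tolerance 0.1 reads). The 2 symbols on repeated rows (4 rows) were left out. TMM factors (0.933 to 1.09, trims of 30% and 5%) entered the fit, and printed CPM use library totals. A gene was tested if 3 libraries reached 0.61 CPM (10 reads in a library of median size) and its reads summed to 15 or more (12102 genes), with limma 3.58.1 (R 4.3.3) and an intensity trend, adjusted by Benjamini-Hochberg over all of them. The fit was also run on simulated reads with known changes. Their spread was set alike for all genes, unlike the wide spread of the members within groups, so the run does not cover such genes. Intervals are at 95%, Poisson for levels and exact (Clopper-Pearson) binomial for ratios, with insulin reads taken as fixed in ratios between libraries. Named genes were the members and, per list, the 2 genes with the largest moderated t and the 2 with the widest range over libraries, of which a few are not reported here; the members and lists were chosen with earlier results of these data known. Promoters are RefSeq's, build GRCr8, with 1 transcript start per gene. Alternatives covered scaling, pseudocount, filter, limma-voom, title numbers, the insulin denominator and leaving out each library. Figures were drawn with matplotlib 3.10.9.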

Additional observations from a re-analysis of the deposited data

How the results depend on the processing

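No paired analysis was possible because the groups share no title number. Calls over all genes stayed at 0 in every alternative; without HIP3 the smallest adjusted p was 0.0872 and the unadjusted count 1804, and without WT4 1605. With 1 library left out in turn, the log2 difference ran from -1.35 to 1.97 for Pcsk1, from -1.09 to 2.14 for Gad1, from -2.14 to 2.57 for Slc2a2, from -1.75 to 1.43 for Slc30a8 and from -1.84 to 0.25 for Gjd2, and kept its sign for Pcsk2 (0.21 to 4.68). A pseudocount of 8 reads gave -0.054 for Pcsk1 and -0.11 for Gad1, by construction less weight on libraries without a read. List medians ran, with 1 library left out, from -0.25 to -0.14 for convertases, from -0.046 to 1.36 for granule genes, from -0.12 to 0.66 for glucose sensing, from 0.0048 to 0.38 for transcription factors, from 0.13 to 0.90 for neural-type genes, from -0.44 to -0.12 for glucose transporters and from -0.69 to -0.17 for connexins. With no filter on low reads the medians of zinc exporters and of the glucose-6-phosphatase list were -0.082 and 0.20. With libraries numbered 1 to 4 alone the median of transcription factors was -0.0040. Per 1000 reads of Ins1 alone the members had 147 reads in HIP2 and 25.7 in HIP3, against 62.3 in WT1 and 30.3 in WT4, and per 1000 of Ins2 alone 372 in HIP2 and 77.4 in HIP3, against 215 in WT1 and 74.2 in WT4, larger by construction; HIP3 over WT4, the ratio with Ins2 alone was 1.38 for Pcsk2 and 1.04 for Slc2a2. In all, 231 values of main comparisons kept their direction and side of the threshold or moved by less than the spread between libraries. Another 16 turned in sign, and 16 moved beyond that spread or beyond counting intervals. The 231 include the alternatives with 0 calls, and a median could change sign and still count among them, as that of granule genes did without WT26. Depth limits members under 10 reads in HIP2 and WT1.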

Other observations

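Relatives of the members with roles in other cells followed other orders. Of 9 tested glucose transporters, Slc2a2 among them, 2 had a positive and 7 a negative HIP minus WT difference, with a median of -0.07 (-0.12 without HIP2 to -0.44 without WT26), and 0 passed limma's test. Slc2a1, the widespread transporter GLUT1, had 51.8, 97.8 and 158 CPM in HIP30, HIP2 and HIP3, against 242, 225 and 97.8 CPM in WT26, WT1 and WT4, a difference of -0.98 ± 0.51 (SE, limma, adjusted p = 0.691). Of 10 tested connexins, Gjd2 among them, 2 had a positive and 8 a negative difference, with a median of -0.35 (-0.17 without WT4 to -0.69 without WT1), and 0 passed. Gjb2, a connexin of epithelia, had 48.8, 102 and 232 CPM in the HIP libraries, against 667, 374 and 125 CPM in the WT libraries, a difference of -1.66 ± 0.74 (SE, limma, adjusted p = 0.691). Slc2a1 and Gjb2 were thus highest in WT26 and WT1, where Slc2a2 and Gjd2 were unread or low.

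Of 8 tested zinc exporters, Slc30a8 among them, 5 had a positive and 3 a negative difference, with a median of 0.11 (0.051 without HIP2, 0.071 without WT26 and 0.18 without HIP30), and 0 passed. Slc30a7, a zinc transporter of the Golgi, had 54.8, 53.7 and 49.0 CPM in HIP30, HIP2 and HIP3, against 36.7, 45.2 and 48.0 CPM in WT26, WT1 and WT4. Of 5 tested genes around glucose-6-phosphatase, 2 were positive and 3 negative, with a median of -0.0047 (-0.13 without WT1 to 0.087 without WT26), and G6pc3, the widespread form of the enzyme, had 64.4, 60.6 and 65.1 CPM in the HIP libraries, against 39.3, 50.04 and 65.5 CPM in the WT libraries. Of 5 tested genes of the insulin receptor family and its substrates, 3 were positive and 2 negative, with a median of 0.31 (0.22 without HIP2 to 0.47 without HIP3). Irs1, an adaptor of the insulin receptor, had 44.7, 34.1 and 18.2 CPM in the HIP libraries, against 4.10, 9.23 and 25.7 CPM in the WT libraries, a difference of 1.52 ± 0.61 (SE, limma, adjusted p = 0.691). Irs2, its relative, had 46.2, 51.5 and 49.3 CPM in the HIP libraries, against 70.4, 70.1 and 64.6 CPM in the WT libraries, so that the groups did not overlap, with a difference of -0.55 ± 0.19 (SE, limma, adjusted p = 0.691). Each of these genes missed the threshold.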
